A study of Mus musculus with 19 samples.

Results

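The genes described here are 10 markers of fat cells: Adipoq, Lep, Cfd, Plin1, Plin4, Cidec, Fabp4 and Pparg, which are read here as markers of white or general fat cells, and Cidea and Ucp1, which are read as markers of brown fat cells. They were looked up by symbol, each matched 1 row of the table, and together they make up 10 of its 26796 genes. Earlier results of these data were known when the set was chosen. The unadjusted p-values below are thus not tests of genes fixed in advance. The table holds RNA sequencing counts from 19 tumours grown from Met1 cells, a mouse mammary cancer line derived from a tumour driven by the polyoma middle T oncogene. The tumour-bearing mice were given extracellular vesicles, membrane particles shed by cells, that had been collected from neutrophils. In the DMSO group (9 tumours) the neutrophils had received the vehicle dimethyl sulfoxide, and in the 27HC group (10 tumours) they had received 27-hydroxycholesterol, a cholesterol metabolite. The mice themselves were thus not given the metabolite directly, and all 19 tumours came from hosts that received neutrophil vesicles, with no group that received none. The labels give neither the host strain, age and sex nor the place of the graft and the vesicle dose, and they do not tie tumours to individual mice, so p-values measure the spread between these tumours. Each title carries 2 numbers after the treatment, and the first of them, 1 or 2, has no stated meaning: number 1 covers 5 DMSO and 5 27HC tumours and number 2 covers 4 DMSO and 5 27HC tumours. A tumour is named below by its treatment and its numbers, as in DMSO 1_2.

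Fat cells store triglyceride in lipid droplets and secrete hormones. White fat cells hold 1 large droplet and release adiponectin and leptin, while brown fat cells hold many small droplets and burn fatty acids in mitochondria uncoupled by UCP1. The mammary gland lies within a fat pad. Several fat cell genes, those for lipid droplet proteins and fatty acid carriers among them, are also used by epithelial cells, blood vessels and macrophages. In bulk tumour RNA, fewer cells of a type and less RNA per cell cannot be told apart.

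Totals ran from 28139419 to 41179056 expected counts per tumour. Levels are given below as CPM, the counts of a gene per 1000000 counts of the library, scaled for library composition with the trimmed mean of M values. The tumours differed in other tissue markers: the summed level of 16 skeletal muscle genes ran from 31.2 to 5129 CPM, highest in 27HC 1_5, and that of 9 salivary gland genes from 13.6 to 6284 CPM, highest in DMSO 1_5. Library base composition also differed. The mean GC content of the transcripts, weighted by their counts, was 49.82 to 50.01% in 5 libraries (DMSO 1_5, DMSO 2_3, 27HC 1_3, 27HC 1_5 and 27HC 2_3) and 51.2 to 52.8% in the 14 others.

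The 10 genes fell into an abundant set found in every tumour and a scarce set that was high in a few tumours. On the scale of CPM per kilobase of the longest coding transcript, Cfd had the highest median over the 19 tumours at 106.4 (lowest 9.54, highest 155.3). Fabp4 came next at 29.4, Plin1 at 17.4, Plin4 at 17.0, Cidec at 5.05 and Pparg at 4.65. The place of Fabp4 depended on the length used. Its longest coding transcript has 896 bases and its merged exons 4489, against 2817 and 4649 for Plin1. Without a length scale the median of Fabp4 was 26.4 CPM, below the 49.0 CPM of Plin1 and the 97.7 CPM of Plin4. The scarce genes followed with medians of 1.31 for Adipoq, 0.346 for Cidea, 0.0467 for Lep and 0.0299 CPM per kilobase for Ucp1. Per kilobase of the longest coding transcript, several neighbours kept their places within single tumours. Cfd exceeded Fabp4 in 18 of 19 tumours, Fabp4 exceeded Plin1 in 18 and Plin4 exceeded Cidec in 19. The order of Plin1 over Plin4 held in 5 of 19 tumours, so Plin4 was the higher in most tumours although its median was slightly lower. Adipoq exceeded Cidea in 14 tumours. The order of Cidec over Pparg held in 11 tumours and that of Lep over Ucp1 in 9, so those neighbours did not separate. The label of the set therefore holds unevenly: Adipoq, Cfd, Plin1, Plin4, Cidec, Fabp4, Pparg and Cidea had counts in every tumour. Cidea reached 10 expected counts in 12 of the 19 tumours. Lep reached 10 expected counts in 6 of the 19 tumours and had 0 counts in 4. The defining brown fat gene Ucp1 reached 10 expected counts in 3 of the 19 tumours and had 0 counts in 6. Those 6 zeros allow up to 0.0711 to 0.0976 CPM per tumour (3 counts), a limit that covers counting error only.

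**Figure D1:**
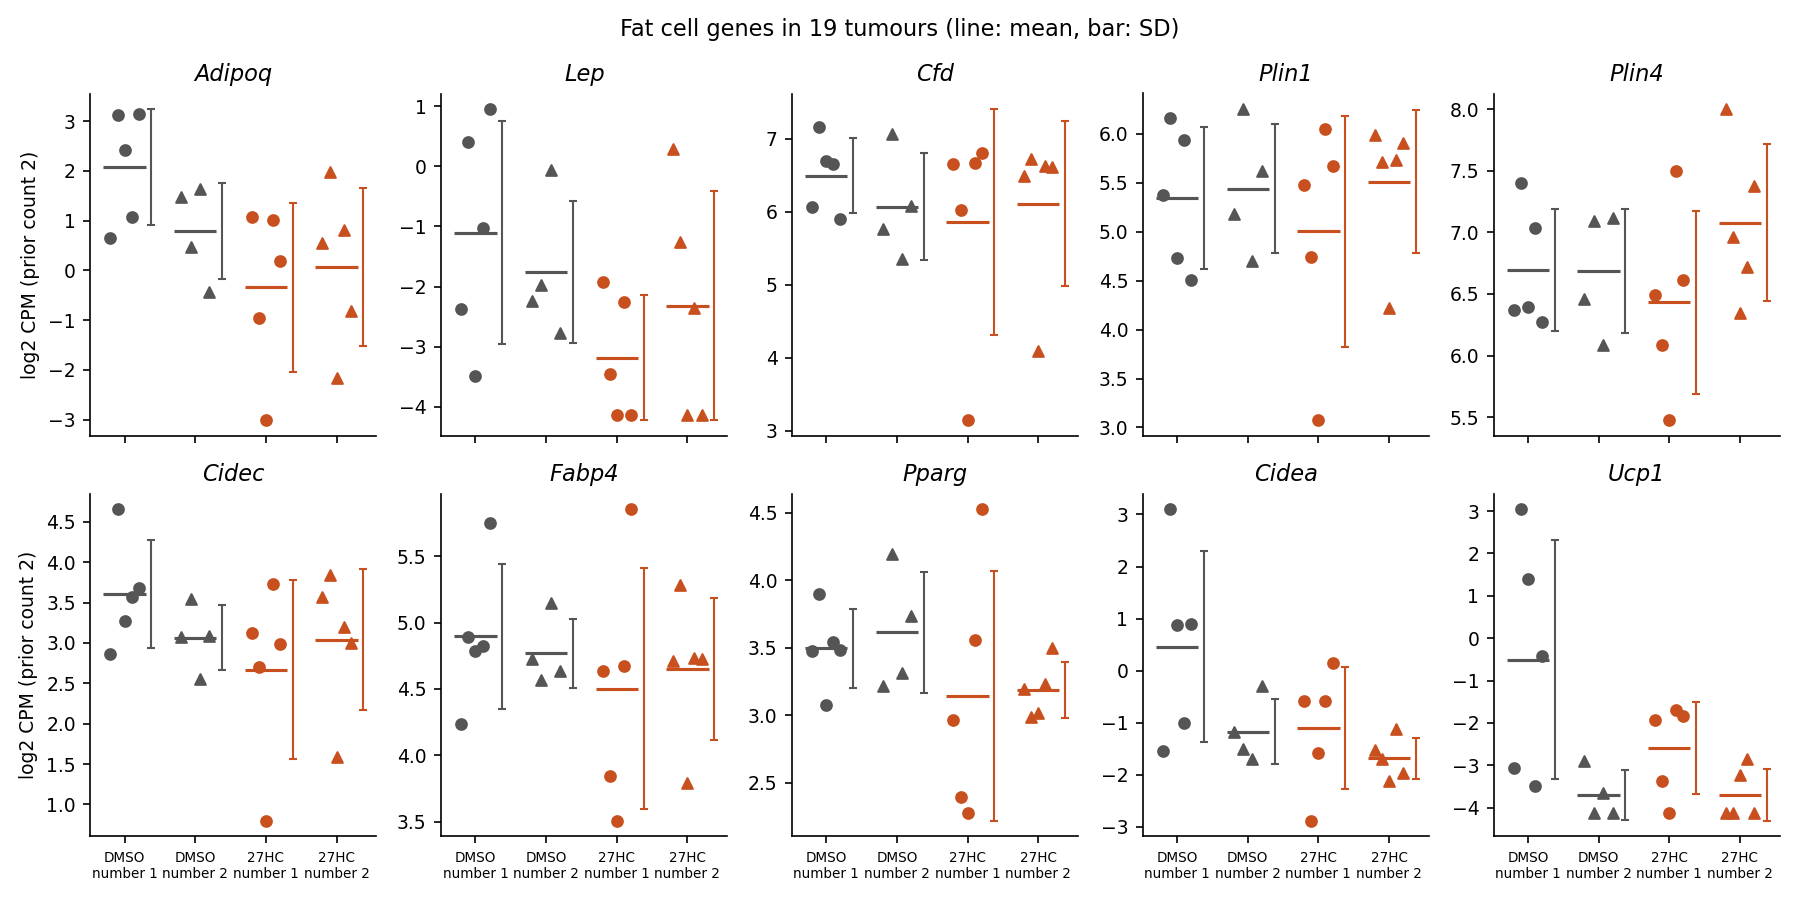
Level of each of the 10 genes in each of the 19 tumours, in log2 CPM with a prior count of 2, with tumours grouped by treatment and by the first number of their titles. Lines are group means and bars are SD. Tumours with 0 counts stand at -4.13, a value set by the prior count. Adipoq, Cidea and Ucp1 have their 3 highest tumours among DMSO 1_2, DMSO 1_3 and DMSO 1_5, while Plin1, Plin4, Cfd and Fabp4 lie within a narrower range in most tumours.

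The secreted proteins were described first. Adipoq (ENSMUSG00000022878, GRCm38 chromosome 16, 23146536 to 23158028, plus strand) encodes adiponectin, a hormone made almost only by fat cells. Its levels in the DMSO tumours of number 1 were 1.51, 8.65, 5.28, 2.04 and 8.75 CPM (tumours 1_1 to 1_5), and in those of number 2 they were 2.73, 1.33, 3.03 and 0.686 CPM (2_1 to 2_4). In the 27HC tumours the levels were 2.05, 0.459, 0.067, 1.95 and 1.07 CPM for number 1 and 1.41, 3.87, 0.168, 1.69 and 0.511 CPM for number 2. The 3 highest values were all from DMSO tumours and the 3 lowest from 27HC 1_3, 27HC 2_3 and 27HC 1_2, but the groups overlapped. Group means were 3.78 ± 3.08 CPM (SD, n = 9) in DMSO and 1.33 ± 1.15 CPM (SD, n = 10) in 27HC, and 9 of 10 27HC tumours lay below the DMSO median of 2.73 CPM. The 250 bases that precede the Adipoq start in RefSeq (GRCm38.p6, chr16:23146286-23146535, plus strand) are shown with those of Lep (chr6:29059971-29060220, plus strand), the other fat hormone among the scarce genes. Capitals mark letters that match 1 of 4 motifs searched on both strands: the nuclear receptor half-site AGGTCA, the same half-site as a direct repeat spaced by 1 base, the core TTGCNNAA of C/EBP factors and the TATA box TATAAA. The half-site also lies within every direct repeat match.

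Adipoq: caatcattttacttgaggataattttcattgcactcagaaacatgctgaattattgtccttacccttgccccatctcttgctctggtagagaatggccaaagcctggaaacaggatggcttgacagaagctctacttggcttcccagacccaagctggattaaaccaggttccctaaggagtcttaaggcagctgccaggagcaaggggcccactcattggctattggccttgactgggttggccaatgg
Lep: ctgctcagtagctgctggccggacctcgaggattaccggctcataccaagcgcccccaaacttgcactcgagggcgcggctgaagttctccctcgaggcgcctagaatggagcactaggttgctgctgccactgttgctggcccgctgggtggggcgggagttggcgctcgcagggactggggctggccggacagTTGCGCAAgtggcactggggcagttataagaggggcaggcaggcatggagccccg

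The Adipoq window held none of the 4 motifs, and the Lep window held the C/EBP core once, its first base 55 bases before the start and matching on both strands. Among 27025 promoter windows of the same length, 13.8% held the half-site, 0.037% the direct repeat, 9.55% the C/EBP core and 13.0% the TATA box. A match here is a match of letters and not a measured binding site.

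Lep (ENSMUSG00000059201, chromosome 6, 29060220 to 29073877, plus strand) encodes leptin, the satiety hormone of white fat. Its levels in the DMSO tumours were 0.136, 1.26, 0.032, 0.436 and 1.87 CPM for number 1 and 0.155, 0.197, 0.906 and 0.090 CPM for number 2. In the 27HC tumours they were 0.206, 0.034, 0, 0.152 and 0 CPM for number 1 and 1.16, 0.363, 0, 0.139 and 0 CPM for number 2. All 4 tumours with 0 counts were in the 27HC group, and the 3 highest were DMSO 1_5, DMSO 1_2 and 27HC 2_1. The 4 zeros allow up to 0.0711 to 0.0976 CPM per tumour by counting error alone. Lep reached 10 expected counts in 6 of 19 tumours, and DMSO 1_5 alone held 32.6% of its counts over all tumours.

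Cfd (ENSMUSG00000061780, chromosome 10, 79890853 to 79892655) encodes complement factor D, also called adipsin, a protease of the alternative complement pathway that fat cells secrete. It was the most abundant of the 10 genes per kilobase. In DMSO tumours its levels had a lowest value of 40.9, a median of 67.5 and a highest value of 143.2 CPM, and in 27HC tumours 8.80, 98.6 and 112.0 CPM. The means were 85.7 ± 36.4 (SD, n = 9) and 79.8 ± 37.4 CPM (SD, n = 10), a difference smaller than the spread in either group. Cfd thus did not share the group pattern of Adipoq: 3 of 10 27HC tumours lay below the DMSO median.

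The brown fat genes were scarce and uneven across tumours. Ucp1 (ENSMUSG00000031710, chromosome 8, 83290352 to 83298452, plus strand) encodes the uncoupling protein of brown fat mitochondria. Its levels in the DMSO tumours of number 1 were 0.063, 8.15, 2.59, 0.031 and 0.690 CPM, and in those of number 2 they were 0.077, 0, 0.023 and 0 CPM. In the 27HC tumours they were 0.204, 0.039, 0, 0.253 and 0.224 CPM for number 1 and 0, 0, 0.049, 0.081 and 0 CPM for number 2. DMSO 1_2 held 70.0% of all Ucp1 counts of the series, DMSO 1_3 held 15.1% and DMSO 1_5 held 7.42%. None of the 10 27HC tumours reached 10 counts, and neither did 6 of the 9 DMSO tumours. Its promoter window (RefSeq, GRCm38.p6, chr8:83290098-83290347, plus strand) is shown beside that of Plin1 (chr7:79732777-79733026, minus strand), an abundant gene whose level had a correlation of 0.06 with that of Ucp1 over the tumours, with capitals as before.

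Ucp1: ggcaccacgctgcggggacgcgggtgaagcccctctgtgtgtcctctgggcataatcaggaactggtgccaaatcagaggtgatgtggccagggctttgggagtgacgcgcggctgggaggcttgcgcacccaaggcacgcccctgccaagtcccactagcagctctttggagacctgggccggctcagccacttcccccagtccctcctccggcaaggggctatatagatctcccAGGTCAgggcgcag
Plin1: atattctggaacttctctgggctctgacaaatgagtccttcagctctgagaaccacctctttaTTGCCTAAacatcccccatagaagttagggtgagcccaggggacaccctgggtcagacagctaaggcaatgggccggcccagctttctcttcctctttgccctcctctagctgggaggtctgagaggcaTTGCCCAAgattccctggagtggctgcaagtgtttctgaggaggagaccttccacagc

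The Ucp1 window held the nuclear receptor half-site once, 14 bases before the start. The Plin1 window held the C/EBP core at 187 and at 58 bases before the start. No entry was matched for Cidea or Fabp4, and 8 of the 10 genes had a window. In the first listed windows of Cfd, Plin4 and Cidec none of the 4 motifs was found, and in that of Pparg the half-site was found 28 bases before the start.

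Cidea (ENSMUSG00000024526, chromosome 18, 67343604 to 67367785) encodes a lipid droplet protein that enlarges droplets and marks brown and beige fat cells, and which lipid-secreting epithelia such as the lactating mammary gland and sebaceous gland also use. Its levels in the DMSO tumours were 0.284, 8.50, 1.77, 0.439 and 1.81 CPM for number 1 and 0.386, 0.293, 0.249 and 0.758 CPM for number 2. In the 27HC tumours they were 0.612, 0.079, 0.276, 0.610 and 1.05 CPM for number 1 and 0.291, 0.250, 0.172, 0.404 and 0.197 CPM for number 2. The 3 highest tumours were DMSO 1_2, DMSO 1_5 and DMSO 1_3, the same 3 as for Ucp1 and for Adipoq. DMSO 1_2 alone held 48.8% of all Cidea counts. The means were 1.61 ± 2.66 CPM (SD, n = 9) in DMSO and 0.394 ± 0.290 CPM (SD, n = 10) in 27HC, while the medians were closer, at 0.439 and 0.283 CPM.

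The lipid droplet coat proteins were present in every tumour. Plin1 (ENSMUSG00000030546, chromosome 7, 79720218 to 79732903, minus strand) encodes perilipin 1, which coats the droplets of fat cells and gates their lipolysis. Its lowest, median and highest levels were 22.7, 41.5 and 76.1 CPM in DMSO tumours and 8.37, 51.5 and 65.9 CPM in 27HC tumours. Plin4 (ENSMUSG00000002831, chromosome 17, 56100591 to 56109803), a perilipin that binds nascent droplets, ran from 67.9 over a median of 87.8 to 168.9 CPM in DMSO and from 44.4 over 101.4 to 256.1 CPM in 27HC. Cidec (ENSMUSG00000030278, chromosome 6, 113424634 to 113435760), which fuses droplets into the single large one of white fat cells, ran from 5.80 over 9.64 to 25.1 CPM in DMSO and from 1.68 over 8.32 to 14.3 CPM in 27HC. All 3 genes had their lowest value in 27HC 1_3, and the groups overlapped for each.

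Fabp4 (ENSMUSG00000062515, chromosome 3, 10204088 to 10208576) encodes the fatty acid carrier of fat cells, which capillary endothelium and macrophages also make. It ran from 18.8 over a median of 27.5 to 53.9 CPM in DMSO tumours and from 11.3 over 25.8 to 57.7 CPM in 27HC tumours. Pparg (ENSMUSG00000000440, chromosome 6, 115360951 to 115490399) encodes the nuclear receptor that drives fat cell differentiation and is required for the expression of many of the other genes here. It ran from 8.39 over 11.1 to 18.2 CPM in DMSO and from 4.80 over 8.57 to 22.9 CPM in 27HC, and its highest over lowest ratio, 4.78, was the smallest of the 8 genes for which it could be formed. That ratio was 130 for Adipoq and 108 for Cidea, 16.3 for Cfd, 14.9 for Cidec, 9.09 for Plin1, 5.76 for Plin4 and 5.09 for Fabp4. Single tumours stood at the ends for several genes at once: 27HC 1_3 was lowest for 7 of the 10 genes (Adipoq, Cidec, Plin1, Plin4, Fabp4, Cfd and Pparg), and DMSO 1_2 was highest for 4 (Cidea, Cidec, Ucp1 and Cfd).

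The comparison of 27HC with DMSO asks whether vesicles from neutrophils exposed to the metabolite changed these genes in the tumours. None of the fat cell genes passed the test. Adipoq, Cidea, Ucp1 and Lep had the largest differences, each with a lower mean in 27HC, while Plin1, Plin4, Fabp4, Cfd and Pparg lay close to no difference. Ucp1 and Lep did not pass the filter on low counts, so 8 of the 10 genes were tested, and edgeR's quasi-likelihood test called 0 of them at an adjusted p under 0.05. Over all 15629 genes tested it also called 0 (0%), with 354 genes at an unadjusted p under 0.05, while DESeq2 called 2 and limma-voom 0, none of them a fat cell gene. On the log2 scale the difference (27HC over DMSO) was -1.51 (SE 0.57) for Adipoq with an unadjusted edgeR p of 0.0158, and -2.02 (SE 0.65) for Cidea with an unadjusted edgeR p of 0.00549. The adjusted p was 1.00 for both in edgeR. In the edgeR fit without a filter, Ucp1 had a difference of -3.91 (SE 1.16) and Lep of -1.43 (SE 0.85). The sizes depended on the tool: Ucp1 had -2.14 with DESeq2 and -1.44 with limma-voom, and with limma-voom Cidea had -1.23 and Lep -2.10. These large estimates rest on few tumours: without DMSO 1_2 the difference was -0.92 for Cidea and -2.20 for Ucp1, and without both DMSO 1_2 and DMSO 1_5 it was -0.83 for Adipoq, -0.58 for Cidea, -2.06 for Ucp1 and -0.39 for Lep. Without DMSO 1_5 alone Lep stood at -0.96, and without 27HC 2_1 alone at -2.48.

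The abundant genes had narrower intervals. The log2 differences were -0.04 for Plin1 (95% interval -0.71 to 0.63), 0.16 for Plin4 (-0.40 to 0.73), -0.17 for Fabp4 (-0.71 to 0.38), -0.10 for Cfd (-0.87 to 0.67) and -0.29 for Pparg (-0.79 to 0.22). For these 5 genes the interval lay within a 2-fold change in either direction. Cidec had a difference of -0.41 (SE 0.33) and an interval from -1.10 to 0.28, which went beyond 2-fold on the lower side. Of the 8 tested genes 1 lay above 0 and 7 below, with a median of -0.23, against a median of 0.01 and 53.9% above 0 over all 15629 genes tested.

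**Figure D2:**
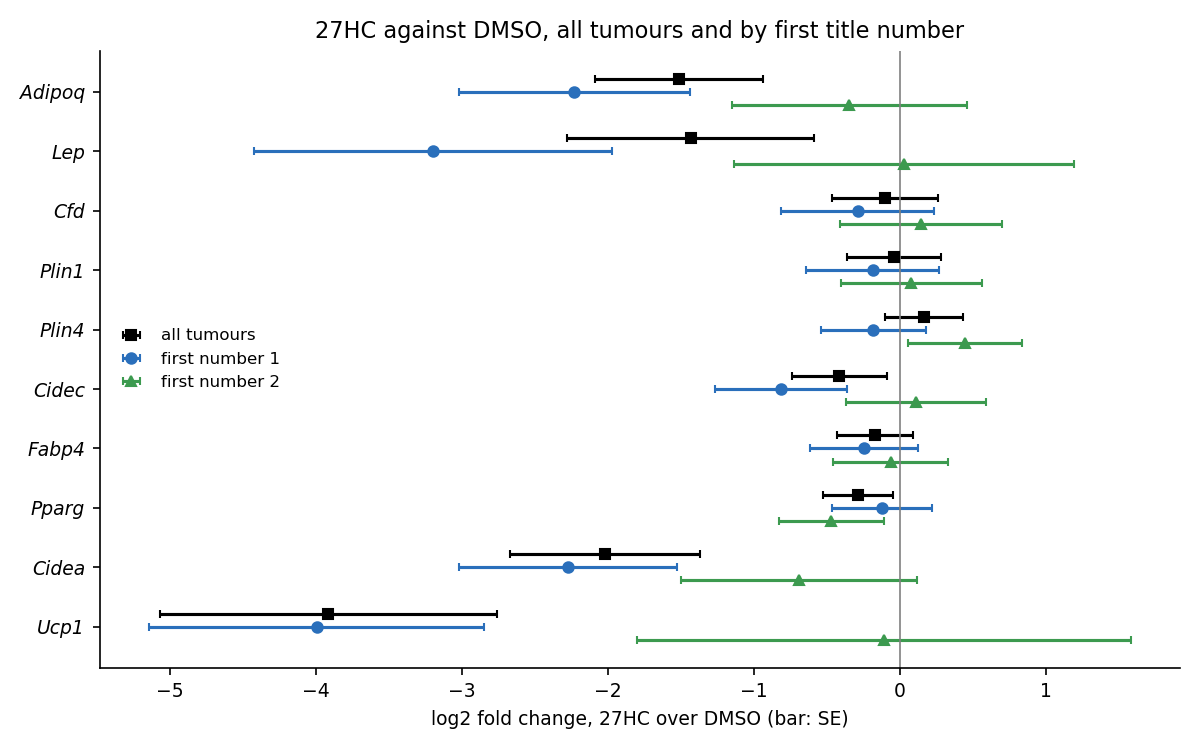
Log2 difference of 27HC over DMSO for each of the 10 genes, over all 19 tumours and within each first title number, with bars of 1 SE from edgeR. Ucp1 and Lep come from the fit without a filter on low counts. The bars of Plin1, Plin4, Cidec, Fabp4, Cfd and Pparg are the shortest.

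A test that does not use the count model was run on the mean log2 CPM of each gene, with all 92378 regroupings of the tumours, two-sided and unadjusted for the 10 genes; the smallest p it can give is 1.1e-05. Adipoq differed by -1.64 (exact permutation p = 0.0216). Cidea differed by -1.13 (exact permutation p = 0.0653), Lep by -1.35 (exact permutation p = 0.0718) and Ucp1 by -1.22 (exact permutation p = 0.205). Over all regroupings the 6 other genes gave exact permutation p-values from 0.128 for Pparg to 0.828 for Plin4. When tumours were regrouped only within their first title number, the exact permutation p was 0.0228 for Adipoq and 0.0439 for Cidea. It was 0.0808 for Lep and 0.136 for Ucp1, and from 0.139 for Pparg to 0.822 for Plin4 among the 6 others.

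The differences of the scarce genes were larger within number 1 than within number 2, and none passed the test in either. Among the number 1 tumours, mean Adipoq was 5.25 ± 3.47 CPM (SD, n = 5) in DMSO and 1.12 ± 0.882 CPM (SD, n = 5) in 27HC, a log2 difference of -2.23 (SE 0.79). Among the number 2 tumours it was 1.95 ± 1.12 (SD, n = 4) in DMSO and 1.53 ± 1.45 CPM (SD, n = 5) in 27HC, and the log2 difference was -0.35 (SE 0.80). Cidea had log2 differences of -2.27 (SE 0.75) and -0.69 (SE 0.81), Ucp1 of -3.99 (SE 1.15) and -0.11 (SE 1.69), and Lep of -3.20 (SE 1.23) and 0.03 (SE 1.16) within numbers 1 and 2. Without DMSO 1_2 the number 1 differences were -1.03 for Cidea and -2.41 for Ucp1, and without 27HC 2_2 the number 2 difference of Adipoq was -1.06. edgeR called 0 of 15629 genes within number 1 (0%; 215 at an unadjusted p under 0.05) and 0 within number 2 (0%; 382), and DESeq2 called 1 in each, no fat cell gene among them. Of the 8 tested genes 0 lay above 0 and 8 below within number 1, with a median of -0.27 against 0.01 for all genes, and within number 2 the split was 4 and 4, with a median of 0.01.

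Whether the treatment difference itself changed with the number was tested as an interaction, and no fat cell gene passed. The log2 difference of the differences (number 2 over number 1) was 1.88 (SE 1.12) for Adipoq, 1.58 (SE 1.10) for Cidea, 3.88 (SE 2.30) for Ucp1 and 3.22 (SE 1.69) for Lep. edgeR's unadjusted p-values were 0.111, 0.168, 0.107 and 0.0694, and it called 0 of 15629 genes (0%; 223 at an unadjusted p under 0.05), as did DESeq2 and limma-voom on the same genes. Without a filter DESeq2 called 2 genes for 27HC against DMSO, 1 within number 1, 4 within number 2 and 2 for the interaction, and neither Ucp1 nor Lep was among them. In simulated counts edgeR recovered 9% of 2-fold and 58% of 4-fold interactions, against 73% and 98% for the treatment difference. The changed genes were drawn only from genes above a set minimum of mean counts, so these percentages do not cover scarce genes. Recovery at the low counts of Adipoq, Cidea, Ucp1 and Lep was not tested. Without DMSO 1_2 the interaction was 0.34 for Cidea and 2.30 for Ucp1, without 27HC 2_2 it was 1.17 for Adipoq, and without 27HC 2_1 it was 1.80 for Lep.

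Ucp1 and Cidea had the largest differences between the first title numbers among the 10 genes, but edgeR did not call them. Averaged over the treatments, the log2 difference of number 2 over number 1 was -4.37 (SE 1.01) for Ucp1 and -1.80 (SE 0.56) for Cidea. edgeR gave unadjusted p-values of 0.000281 and 0.00459 and adjusted p-values of 0.616 and 0.958, and it called 0 of 15629 genes (0%; 385 at an unadjusted p under 0.05). DESeq2 without a filter gave Ucp1 -4.52 with an adjusted p of 0.0369, among 39 lower genes of the 21328 it adjusted (0.183%), and on the filtered genes it called 36, with Cidea at an adjusted DESeq2 p of 0.179. Without DMSO 1_2 the edgeR difference was -1.17 for Cidea and -3.58 for Ucp1, and without both DMSO 1_2 and DMSO 1_5 it was -0.98 for Cidea and -3.62 for Ucp1. Skeletal muscle genes had the same sign in this comparison, with 16 of 16 below 0 and a median of -3.90; their part in the Ucp1 and Cidea values was not tested. Adipoq had a log2 difference of -0.48 and Lep of 0.42 between the numbers.

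The balance of brown against white genes was described per tumour as the mean log2 CPM of Cidea and Ucp1 minus that of the 8 other genes, with no test. The 8 did not all vary together: their r with Adipoq ran from 0.278 for Plin4 to 0.821 for Cidec. In the 6 tumours without a Ucp1 count its log2 CPM was -4.13, a value set by the prior count of 2. The score is thus a contrast of gene levels and not of cell numbers. It was highest in DMSO 1_2 at -1.64, followed by DMSO 1_3 at -2.35 and DMSO 1_5 at -3.97, and lowest in 27HC 2_2 at -6.94. The means were -4.88 ± 1.81 (SD, n = 9) in DMSO and -5.48 ± 0.99 (SD, n = 10) in 27HC, a difference smaller than the spread within DMSO. The medians had the opposite order, at -5.60 in DMSO and -5.29 in 27HC. For numbers 1 and 2 the means were -3.96 ± 1.99 (SD, n = 5) and -6.02 ± 0.58 (SD, n = 4) in DMSO. In 27HC they were -4.86 ± 0.61 (SD, n = 5) and -6.11 ± 0.93 (SD, n = 5), so that number 1 had the higher mean under both treatments. A high value can also come from low white genes. The highest of the 27HC group, -4.25, was that of 27HC 1_3, which had 0 Ucp1 counts and the lowest white mean of all tumours, 1.39.

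For the ratios below, CPM was taken per kilobase of all exons of a gene merged, not of the longest coding transcript used above. The ratio of Cidea to Adipoq on this scale had a median of 0.296 over the 19 tumours. In DMSO 1_2 it was 1.22, in DMSO 1_3 0.416 and in DMSO 1_5 0.256, so the 3 tumours with the most Adipoq differed in how much Cidea went with it. Its extremes were 0.080 in 27HC 2_2 and 5.08 in 27HC 1_3, the latter resting on 2.83 expected counts of Adipoq. Ucp1 over Adipoq was 0.796 in DMSO 1_2, 0.414 in DMSO 1_3 and 0.067 in DMSO 1_5, and 0 in the 6 tumours without a Ucp1 count. Plin1 over Adipoq ran from 0.770 in DMSO 1_5 to 37.0 in 27HC 1_3 with a median of 9.31, so the 2 genes did not keep 1 ratio across tumours. Per kilobase of the longest coding transcript, DMSO 1_5 had 8.05 CPM of Plin1 and 6.77 CPM of Adipoq. Which of the genes was higher there thus depended on the length used.

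**Figure D3:**
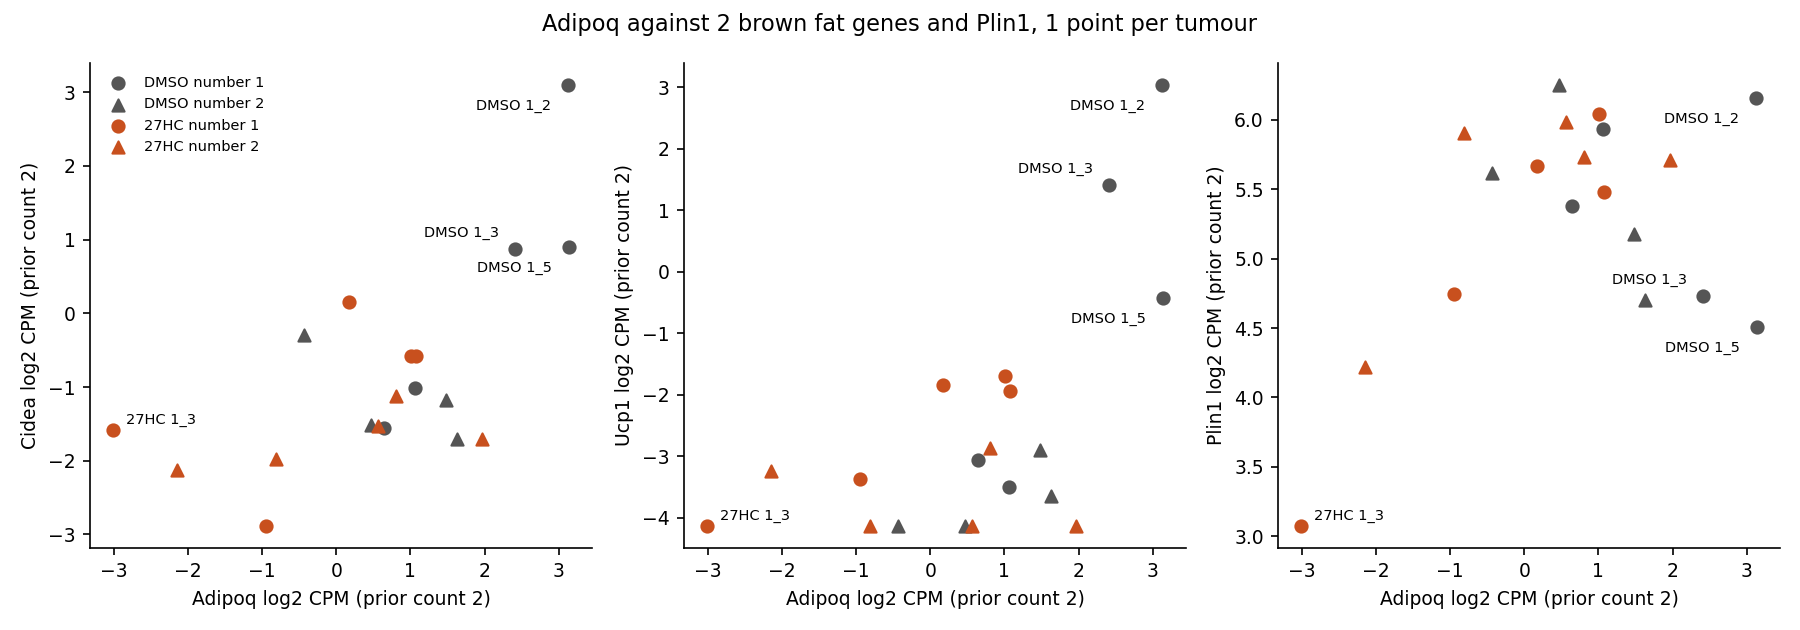
Cidea, Ucp1 and Plin1 against Adipoq in the 19 tumours, each axis in log2 CPM, with points marked by treatment and first title number. Cidea and Ucp1 are highest where Adipoq is high in DMSO 1_2, DMSO 1_3 and DMSO 1_5, and Plin1 is low in the 2 tumours lowest in Adipoq, 27HC 1_3 and 27HC 2_3, with an r of -0.23 among the other 17.

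How the genes varied together over the 19 tumours was measured as correlations of log2 CPM, each with a permutation p adjusted over a family of 115 relations. By Pearson r, though not by rank, the 2 brown markers were the closest of the pairs with a scarce gene: Cidea with Ucp1 gave Pearson r = 0.883 (permutation, adjusted p = 0.000383) and Spearman rho = 0.661 (permutation, adjusted p = 0.0254). That relation was 0.920 within number 1 and 0.029 within number 2, so it did not hold within number 2, where Ucp1 was at or near 0. Without DMSO 1_2 and DMSO 1_5, the 2 tumours farthest from the median, r was 0.727. Adipoq correlated with Lep at r = 0.726 (permutation, adjusted p = 0.00647) and rho = 0.730 (permutation, adjusted p = 0.0133). Within numbers 1 and 2 that r was 0.744 and 0.740, and without the 2 farthest tumours it was 0.662.

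Adipoq with Cidec gave r = 0.821 (permutation, adjusted p = 0.00069) and rho = 0.653 (permutation, adjusted p = 0.0254), with 0.897 and 0.651 within numbers 1 and 2 and 0.596 without 27HC 1_3 and 27HC 2_3. Adipoq with Fabp4 gave r = 0.719 (permutation, adjusted p = 0.00754) and rho = 0.682 (permutation, adjusted p = 0.023), with 0.682 and 0.870 within the numbers and 0.494 without the same 2 tumours. Adipoq with Cidea gave r = 0.638 (permutation, adjusted p = 0.0177) and rho = 0.558 (permutation, adjusted p = 0.0715), with 0.767 within number 1 and 0.193 within number 2. The relation of Adipoq with Cfd, r = 0.649 (permutation, adjusted p = 0.0176) and rho = 0.335 (permutation, adjusted p = 0.373), fell to 0.05 without 27HC 1_3 and 27HC 2_3 and thus rested on those 2 tumours. Adipoq with Plin1 gave r = 0.430 (permutation, adjusted p = 0.15) and rho = 0.102 (permutation, adjusted p = 0.805), and r was -0.23 without the same 2 tumours.

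The abundant genes formed pairs of their own. Plin1 with Plin4 gave r = 0.856 (permutation, adjusted p = 0.000383) and rho = 0.904 (permutation, adjusted p = 0.00115), with 0.913 and 0.773 within numbers 1 and 2 and 0.833 without the 2 farthest tumours. Plin1 with Cfd gave r = 0.889 (permutation, adjusted p = 0.000575) and rho = 0.768 (permutation, adjusted p = 0.00728), with 0.893 and 0.965 within the numbers and 0.732 without the 2 farthest. Cidec with Cfd gave r = 0.894 (permutation, adjusted p = 0.000383) and rho = 0.681 (permutation, adjusted p = 0.023), with 0.884 and 0.925 within the numbers and 0.630 without the 2 farthest. Ucp1 had an r of 0.06 with Plin1 (permutation, adjusted p = 0.853), with rho = -0.07 (permutation, adjusted p = 0.876).

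**Figure D4:**
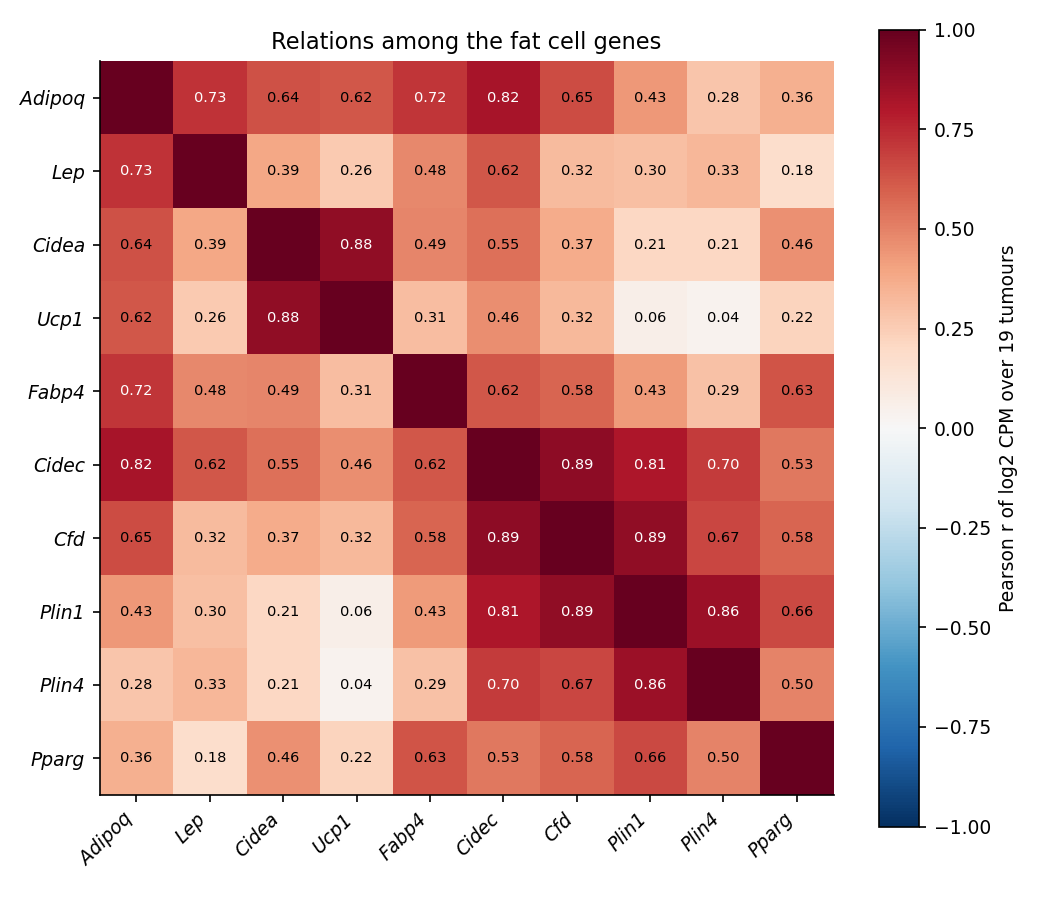
Pearson correlations of log2 CPM over the 19 tumours among the 10 genes, from -1 to 1 on the colour scale. Cidea and Ucp1 (0.883), Plin1 and Plin4 (0.856), Plin1 and Cfd (0.889) and Cidec and Cfd (0.894) are the closest pairs.

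Plin1, Plin4, Cfd, Cidec and Lep also moved with library GC content by Pearson r, and this was measured within the 14 libraries of higher GC content because the 5 others formed a separate cluster. There Plin1 gave r = 0.764 (permutation, adjusted p = 0.0133) and rho = 0.881 (permutation, adjusted p = 0.00575), with 0.821 and 0.896 within numbers 1 and 2 and 0.747 without the 2 farthest libraries. Plin4 gave r = 0.728 (permutation, adjusted p = 0.0176) and rho = 0.701 (permutation, adjusted p = 0.0409), with 0.807 and 0.745 within the numbers and 0.731 without the 2 farthest. Cfd gave r = 0.730 (permutation, adjusted p = 0.0176) and rho = 0.516 (permutation, adjusted p = 0.194), and 0.478 without the 2 farthest. Cidec gave r = 0.660 (permutation, adjusted p = 0.0416) and rho = 0.578 (permutation, adjusted p = 0.123). Lep gave r = 0.642 (permutation, adjusted p = 0.0464) and rho = 0.534 (permutation, adjusted p = 0.174). For Cfd, Cidec and Lep the rank correlation thus did not pass. Adipoq had an r of 0.136, Ucp1 of 0.162, Fabp4 of 0.178, Cidea of 0.282 and Pparg of 0.441 with the same measure.

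The transcripts of these 5 genes did not share 1 range of GC content. Cfd transcripts had a mean GC content of 58.7%, Plin1 57.5%, Cidec 56.4% and Plin4 55.9%, at percentiles 91.8, 86.9, 81.8 and 78.6 of 15406 tested genes, whose median was 50.8%. Lep transcripts, in contrast, had 49.8%, at percentile 44.4. Cidea, which had no such relation past the test, was high at 55.6%, while Adipoq had 50.5% and Fabp4 41.5%. In the 5 libraries of lower GC content the median of Plin1 was 22.7 CPM (8.37 to 50.7) against 52.6 CPM (26.5 to 76.1) in the 14 others, and that of Cfd was 40.9 CPM (8.80 to 112.0) against 99.95 CPM (54.5 to 143.2). Fabp4 had a median of 35.3 CPM in the 5 libraries and 26.2 CPM in the 14, and Adipoq 1.07 and 1.82 CPM. Without the 5 libraries the log2 difference of 27HC over DMSO was -0.90 for Adipoq, -2.39 for Cidea, -4.21 for Ucp1 and -0.19 for Lep. The part of library composition in these levels was not tested.

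**Figure D5:**
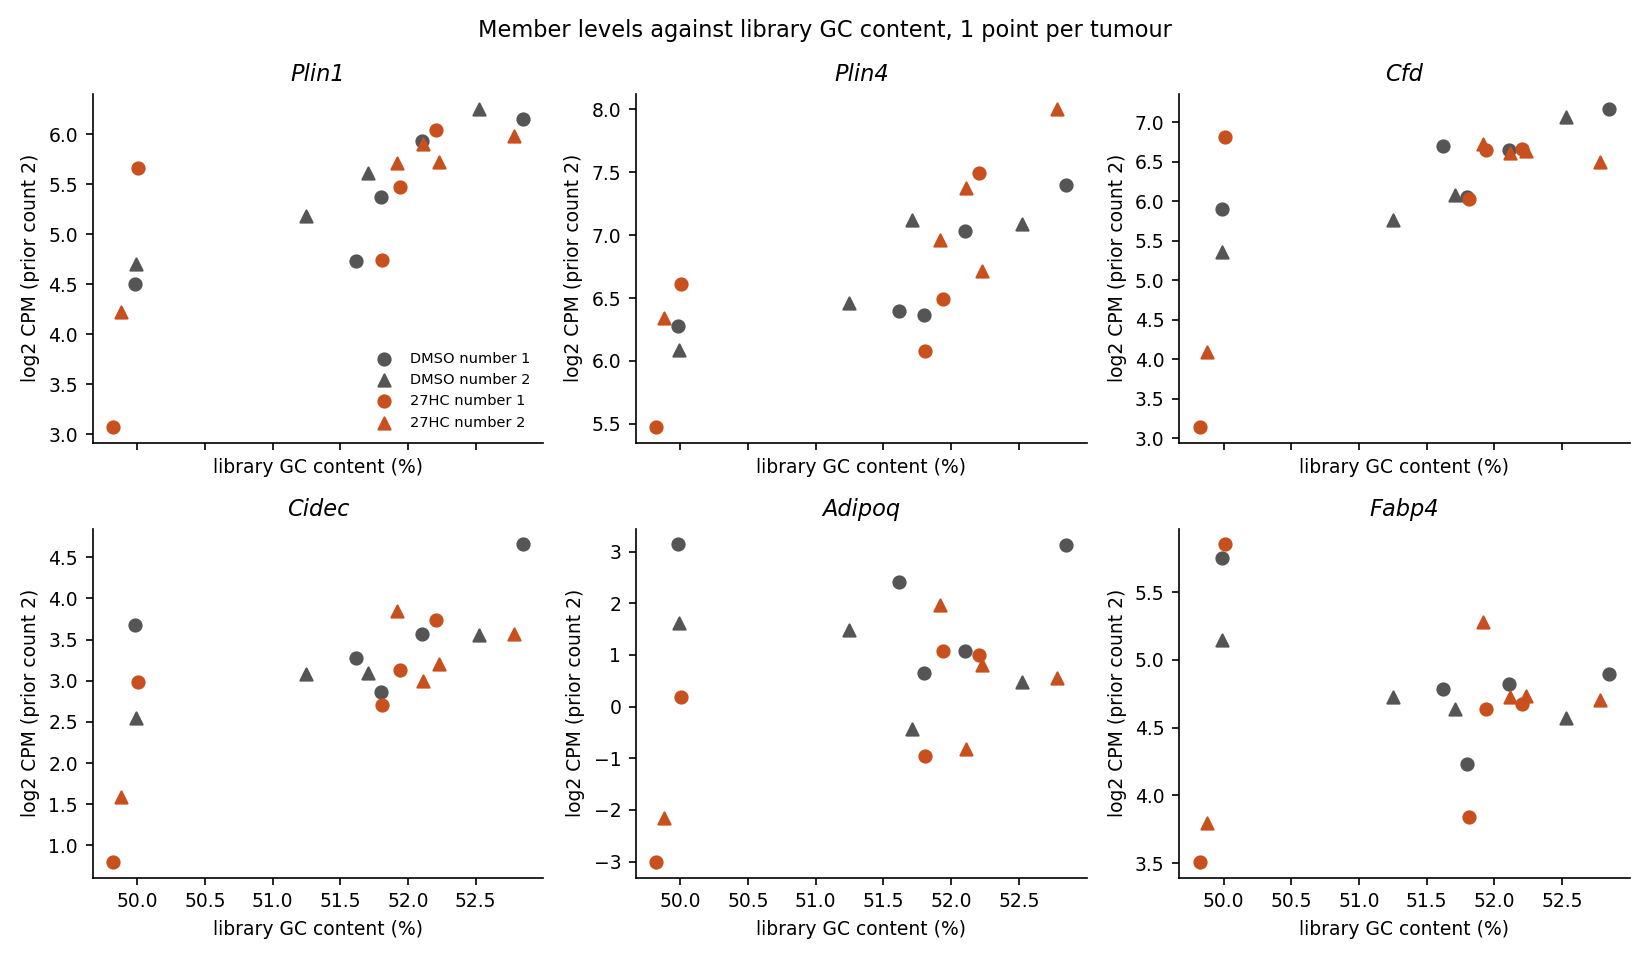
Log2 CPM of Plin1, Plin4, Cfd, Cidec, Adipoq and Fabp4 against the count-weighted mean transcript GC content of the library, in percent, for the 19 tumours. The 5 libraries between 49.82 and 50.01% stand apart from the 14 between 51.2 and 52.8%, and within the 14 Plin1 and Plin4 are higher where GC content is higher.

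Other tissue markers moved with some of the genes. The mean log2 CPM of the mammary epithelium and milk list correlated with Lep at r = 0.778 (permutation, adjusted p = 0.00214) and rho = 0.767 (permutation, adjusted p = 0.00747), with 0.862 and 0.686 within the numbers and 0.753 without the 2 farthest tumours. With Adipoq it gave r = 0.681 (permutation, adjusted p = 0.0109) and rho = 0.625 (permutation, adjusted p = 0.0356), with 0.698 and 0.836 within the numbers and 0.564 without the 2 farthest. The skin and sebaceous gland list gave r = 0.711 with Lep (permutation, adjusted p = 0.00759) and rho = 0.685 (permutation, adjusted p = 0.023), with 0.702 and 0.765 within the numbers and 0.652 without the 2 farthest. The endothelial list gave r = 0.612 with Cfd (permutation, adjusted p = 0.0176) and rho = 0.619 (permutation, adjusted p = 0.0367), and the macrophage list gave r = -0.58 with Cfd (permutation, adjusted p = 0.0312) and rho = -0.32 (permutation, adjusted p = 0.394), with an r of -0.36 without the 2 farthest. The mammary list gave r = 0.653 with Cidec (permutation, adjusted p = 0.0143) and rho = 0.698 (permutation, adjusted p = 0.023), and r = 0.563 with Fabp4 (permutation, adjusted p = 0.0438) and rho = 0.563 (permutation, adjusted p = 0.0715). The skin list gave r = 0.591 with Fabp4 (permutation, adjusted p = 0.0312) and rho = 0.553 (permutation, adjusted p = 0.0728). The salivary list gave r = 0.464 with Adipoq (permutation, adjusted p = 0.126) and rho = 0.625 (permutation, adjusted p = 0.0334), with an r of 0.270 without DMSO 1_5 and 27HC 2_2. The muscle list gave r between -0.34 and 0.11 with the 10 genes (permutation, adjusted p from 0.284 to 0.797). Summed levels of the mammary list ran from 560 to 839 CPM in DMSO and from 495 to 866 CPM in 27HC, those of the skin list from 6.84 to 15.2 and 6.26 to 18.6 CPM, those of the endothelial list from 212 to 413 and 219 to 357 CPM, and those of the macrophage list from 1895 to 3399 and 1741 to 3570 CPM. Of the 14 mammary genes 9 passed the filter, of the 12 skin genes 6, of the 9 salivary genes measured 3, and all 11 endothelial and 11 macrophage genes. Their part in the levels of Lep, Adipoq, Cidec, Fabp4 and Cfd was not tested.

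By the same measure, the genes most like Adipoq over the 19 tumours among 15621 searched were Pck1 (r = 0.865), the gluconeogenic enzyme that also supplies glycerol in fat cells, Hcar1 (0.826), the lactate receptor of fat cells, Sncg (0.802), Adcyap1r1 (0.792) and Cyp2e1 (0.792). Pck1 was highest in DMSO 1_2 at 9.10 CPM and stood at 8.63 CPM in DMSO 1_5, with a median of 2.46 CPM over all tumours. The genes most like Cidea were Pck1 (0.758), Ppm1h (0.751), Idh3b (0.747), Retn (0.738), which encodes the fat cell hormone resistin, and Itih4 (0.720). Without the 2 farthest tumours these were 0.513 for Pck1, 0.594 for Ppm1h, 0.772 for Idh3b, 0.400 for Retn and 0.333 for Itih4. For the genes most like Adipoq the values without the 2 farthest ran from 0.590 for Sncg to 0.842 for Cyp2e1. Retn was highest in DMSO 1_2 at 2.08 CPM against a median of 0.347 CPM. These values are descriptions, since the genes were ranked by them.

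The wider fat cell program was examined with lists. Of 34 other white and general fat cell genes, all tested, 17 had a log2 difference of 27HC over DMSO above 0 and 17 below, with a median of -0.00 against 0.01 for all genes, and 0 were called by edgeR (0%). Retn had a difference of -0.93 (SE 0.41; 0.706 ± 0.599 CPM in DMSO, SD, n = 9, and 0.366 ± 0.181 in 27HC, SD, n = 10), and Pck1 of -0.88 (SE 0.37; 3.86 ± 2.86 and 2.11 ± 1.04 CPM). Cebpd, a transcription factor of early fat cell differentiation, had 0.83 (SE 0.40). Within number 1 the split of these 34 genes was 13 above and 21 below, with a median of -0.06, and within number 2 it was 21 and 13, with a median of 0.16. The list's summed level ran from 897 to 2121 CPM in DMSO and from 691 to 2265 CPM in 27HC.

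Of 28 other brown and thermogenic genes 27 were in the table and 21 were tested, with 8 above 0 and 13 below, a median of -0.08, and 0 called by edgeR. The gene with the smallest unadjusted p was Tbx1, a transcription factor used as a beige fat marker, with a difference of 1.44 (SE 0.44), that is a higher mean in 27HC, and an adjusted edgeR p of 1.00. Esrrg had 0.68, Tnfrsf9 -0.34, Slc27a1 0.07 and Letmd1 -0.08. DMSO 1_2, which held most of the Ucp1 counts, was the highest tumour for 9 of these 27 genes, and also for 10 of the 34 white and general fat cell genes and 4 of the 11 macrophage genes. It held the highest levels of Cox7a1 (1.85 CPM), Cpt1b (8.33 CPM) and Kcnk3 (2.81 CPM), the first 2 of which skeletal muscle also expresses, and in it the summed muscle list stood at 1712 CPM. Among other tumours, the muscle sum was 1627 CPM in DMSO 1_4, with 0.031 CPM of Ucp1, and 4482 CPM in 27HC 1_3, with 0 CPM. In DMSO 1_3, with 2.59 CPM of Ucp1, it was 61.3 CPM. The part of muscle in the Ucp1 levels was not tested. Elovl3, a fatty acid elongase induced in brown fat, was at most 0.097 CPM in any tumour, and Zic1 at most 0.163 CPM. Cox8b, a brown fat and muscle subunit of cytochrome oxidase, was highest in 27HC 1_5 at 5.56 CPM, the tumour with the highest muscle sum of 5129 CPM. On the same brown and thermogenic list, Prdm16 was highest in DMSO 1_4 (1.43 CPM) and Ppargc1a in 27HC 2_3 (19.9 CPM). Dio2 was highest in 27HC 1_3 (4.28 CPM) and Ebf2 in DMSO 2_3 (2.05 CPM). The genes named here from Cox7a1 on were chosen after their values were seen.

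Close relatives of the 10 genes were examined in the same way. Of 13 relatives 8 were tested, 6 above 0 and 2 below with a median of 0.04, and 0 were called. Plin2, the perilipin used by most cell types, stood at 211 ± 76.2 CPM (SD, n = 9) in DMSO and 207 ± 67.2 CPM (SD, n = 10) in 27HC, and Ucp2, the uncoupling protein relative common in immune cells, had a log2 difference of 0.03. Plin5 had -0.45, Ucp3, the muscle relative, 0.93 and Fabp5 0.22. Of 13 fat cell precursor genes 12 were tested, 4 above 0 and 8 below with a median of -0.07 and 0 called; Pparg is on this list too. Clec11a had a difference of 0.42 (SE 0.18), Zfp423, a regulator of preadipocyte commitment, -0.37, Cd34 -0.18, Ly6a -0.07 and Pdgfra -0.01.

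The markers of other tissues had these counts in the same comparison, with 0 called by edgeR on every list. All 16 skeletal muscle genes had a positive difference, with a median of 1.64. Of 11 endothelial genes 6 lay above 0 and 5 below (median 0.01), of 11 macrophage genes 1 and 10 (median -0.21), of 9 tested mammary genes 4 and 5 (median -0.04) and of 6 tested skin genes 3 and 3 (median 0.01). The 3 tested salivary gland genes all lay below 0, with a median of -7.86 that follows the level of 6284 CPM in DMSO 1_5. Since DMSO 1_5 was also among the 3 highest tumours for Adipoq, Cidea and Ucp1 and DMSO 1_2 was the highest DMSO tumour for muscle genes, the values without both are given above; the part of adjoining tissue in the fat cell genes was not tested.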

How the data were processed

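RNA from 19 frozen Met1 tumours was made into stranded mRNA libraries and sequenced in pairs, per the labels' protocols. The authors deposited 1 table of expected counts for 26796 genes, with values that need not be whole. Listed in the submitters' processing notes, with no role, are kallisto 0.44.0, edgeR and limma, and the build GRCm38. Deposited values were rounded to whole numbers. All fits covered the whole table: edgeR 4.0.16 (quasi-likelihood, trimmed mean of M values, filterByExpr, 15629 genes, Benjamini-Hochberg adjustment at 0.05) in R 4.3.3, for the 2 treatments and for 4 groups of treatment by first title number. DESeq2 1.42.0 and limma 3.58.1 (voom) were alternatives, and the script was tested on simulated data. Log2 CPM used a prior count of 2. Permutation tests and correlations (100000 resamples) used scipy 1.17.1 in Python 3.11.15. Gene positions come from GENCODE and promoter windows from RefSeq. The 26290 identifiers with a symbol were used for lists.

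Genes and lists were chosen with earlier results of these data known. From each list the text names up to 3 genes with the smallest unadjusted p and up to 2 with the highest level, and the 5 genes most like Adipoq and Cidea. The brown list genes Cox7a1, Cpt1b, Kcnk3, Elovl3, Zic1, Cox8b, Prdm16, Ppargc1a, Dio2 and Ebf2 fall outside this rule and were added after their values were seen. Counts at low levels limit precision: Adipoq reached 10 expected counts in 17 of 19 tumours, Cidea in 12, Lep in 6 and Ucp1 in 3. Alternatives were other scaling, filters and tests, the replicate number as a block, each tumour left out and, chosen after seeing the data, the 5 libraries of lowest GC content and DMSO 1_2 with DMSO 1_5 left out.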

Additional observations from a re-analysis of the deposited data

Results flagged for a closer look

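In 3 of 66 groups of 4 to 10 tumours examined, 1 tumour lay farther from its group than Dixon's 95% limit allows, which chance gives in about 1 of 20 groups. Plin1 in the 27HC tumours of number 2 was lowest in 27HC 2_3, at 4.22 log2 CPM. Cfd in the same group was also lowest in 27HC 2_3, at 4.10 log2 CPM, and Cfd in the 27HC tumours of number 1 was lowest in 27HC 1_3, at 3.15 log2 CPM. Both tumours are among the 5 libraries of lowest GC content, and the part of library composition was not tested.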

How the results depend on the processing

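No count of calls by edgeR left 0 under another scaling, another filter, a covariate for the first title number or the removal of any tumour. DESeq2 called 2 genes for 27HC against DMSO, 1 within number 1, 1 within number 2 and 36 for number 2 against 1; the cause was not tested. The replicate number was tried as a replicate block: it gave 0 calls and Adipoq -1.47, Cidea -0.94, Ucp1 -1.44, Lep -1.43 and Plin4 -0.0070, a change of sign. Tumours with the same number did not deviate together (r from -0.43 to 0.78; 1 of 9 DMSO tumours correlated best with its own number).

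Other log2 differences that changed sign were small or rested on low counts. Without the 5 libraries of lowest GC content they were 0.011 for Plin1 and 0.031 for Fabp4 over all tumours, 0.23 for Adipoq and 0.23 for Fabp4 within number 2, and 0.21 for Fabp4, -0.080 for Lep and 0.21 for Pparg between the numbers. Without DMSO 1_2 and DMSO 1_5 they were 0.0090 for Fabp4 over all tumours, 0.11 for Fabp4 and 0.020 for Pparg within number 1, -0.048 for Cidea and -0.17 for Fabp4 in the interaction, and 0.068 for Cidec, 0.067 for Fabp4 and 0.047 for Pparg between the numbers. With limma-voom they were -0.029 for Cidec, 0.078 for Ucp1 and -1.19 for Lep within number 2, and 0.0052 for Fabp4 and 0.068 for Pparg between the numbers. The cause was not tested.

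With each tumour left out in turn, sign changes occurred in these ranges. For 27HC against DMSO they were Plin1 -0.15 to 0.087, Plin4 -0.025 to 0.27 and Cfd -0.21 to 0.025. Within number 1 they were Plin1 -0.45 to 0.092, Plin4 -0.54 to 0.033, Fabp4 -0.76 to 0.11, Cfd -0.47 to 0.018 and Pparg -0.63 to 0.098. Within number 2 they were Cidec -0.11 to 0.30, Ucp1 -0.80 to 1.20, Plin1 -0.18 to 0.42, Fabp4 -0.25 to 0.0013, Lep -1.40 to 1.20 and Cfd -0.11 to 0.60. For the interaction they were Plin1 -0.083 to 0.60, Fabp4 -0.27 to 0.60 and Pparg -0.63 to 0.097. Between the numbers they were Cidec -0.31 to 0.0082, Fabp4 -0.21 to 0.15, Lep -0.29 to 0.74 and Pparg -0.14 to 0.23. The brown minus white difference of 27HC over DMSO ran from -0.84 to -0.20. With a prior count of 0.5 the exact permutation p of Lep was 0.0495. Low counts of Ucp1, Lep and Cidea limit what could be detected.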
